A study of Drosophila melanogaster with 12 samples.

Results

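The genes described here are those for neuropeptide precursors and for the enzymes and vesicle protein of the peptide secretory pathway. They were taken from a list of 33 gene symbols by exact match to the gene names of the deposited table. Of its 16272 gene names, 32 matched, 28 precursor genes and 4 processing and vesicle genes (amon, Phm, svr and IA-2). The symbol hug had no match under that spelling. RNA was sequenced from fluorescent cells sorted from brains of Canton-S Drosophila melanogaster adults aged 3 days, with 3 libraries for each of 4 populations. T4 and Pm2 are single types of optic lobe neuron, each marked by a Gal4 line that the labels do not name. The glia were marked through Repo and served as one control, and the neurons were marked through Elav and served as the other. All 4 populations carried the nuclear reporter UAS-Red Stinger, and each had its own driver line, so an effect of the line and of the cell type cannot be told apart. Elav marks neurons in general, so the neuron population can hold T4 and Pm2 cells at a share that was not measured. The labels do not say whether libraries came from separate sets of flies, so the p-values measure the spread between these libraries, which may be technical.

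Neuropeptides are cut out of longer precursor proteins inside the secretory pathway. The prohormone convertase amon (the fly PC2) cleaves at basic residues, the carboxypeptidase svr trims the basic ends, and Phm starts the amidation that many peptides need for activity. IA-2 is a tyrosine phosphatase-like protein of the dense-core vesicle membrane, the compartment in which peptides are stored and released. In the optic lobe, peptides act beside the fast transmitters of the motion and colour circuits. T4 neurons are the motion detectors of the pathway for bright edges and Pm2 neurons are local cells of the proximal medulla.

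Libraries held 35012892 to 57811629 counts. Levels are given as CPM, counts scaled to a library of 1000000 counts after TMM normalization, and a level per kilobase (kb) is that CPM over the merged exon length. Marker genes followed the labels with exceptions. Of 6 markers of T4 and the related T5 neurons, SoxN, TfAP-2, acj6 and Sox102F were called higher in T4 than in neurons, dac and ato were not, and Gad1, which makes GABA, averaged 12440 CPM in Pm2 against 1697 CPM in neurons. TfAP-2 was also called higher in Pm2 than in neurons, and the other GABA marker, VGAT, was not called in Pm2 against neurons. The glial regulator repo averaged 0.327 CPM in T4, 0 in Pm2, 3426 CPM in glia and 0.845 CPM in neurons. The glial transporter Eaat1 averaged 7798 CPM in glia against 488 CPM in neurons. Of 8 pan-glial markers, CG1732 alone was called higher in T4 than in neurons, at 50.15 CPM against 12.45 CPM, and 4 were called lower. Of 5 haemocyte markers, Pxn averaged 2.20 CPM in T4, 1.77 CPM in Pm2, 2.69 CPM in glia and 113 CPM in neurons, while NimC1 was highest in glia, at 4.97 CPM against 0.0141 CPM in neurons. Hml stayed below 1 CPM on average in each population, and eater and He had no count. The part of these markers in the results was not tested.

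The 4 populations differed widely in how much RNA of the listed precursor genes they held and in which genes supplied it. The CPM of the 28 precursor genes summed to 101.8 ± 16.7 in T4, 2094 ± 177 in Pm2, 143.0 ± 9.66 in glia and 2292 ± 224 in neurons (SD, n = 3 each). The T4 sum was thus 0.0444 of the neuron sum and 0.0486 of the Pm2 sum. No T4 or glia library reached any Pm2 or neuron library, and the Pm2 and neuron ranges overlapped. Precursor genes with a mean of at least 10 CPM numbered 2 in T4, 4 in Pm2, 4 in glia and 9 in neurons. Genes without a single count numbered 7 in T4, 11 in Pm2, 8 in glia and 2 in neurons. A gene at 0 in the 3 libraries of a population was given the limit of 3 counts over that population, which is 0.0194 CPM in T4, 0.0186 CPM in Pm2, 0.022 CPM in glia and 0.0238 CPM in the neuron population. Such limits cover counting error only.

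**Figure D1:**
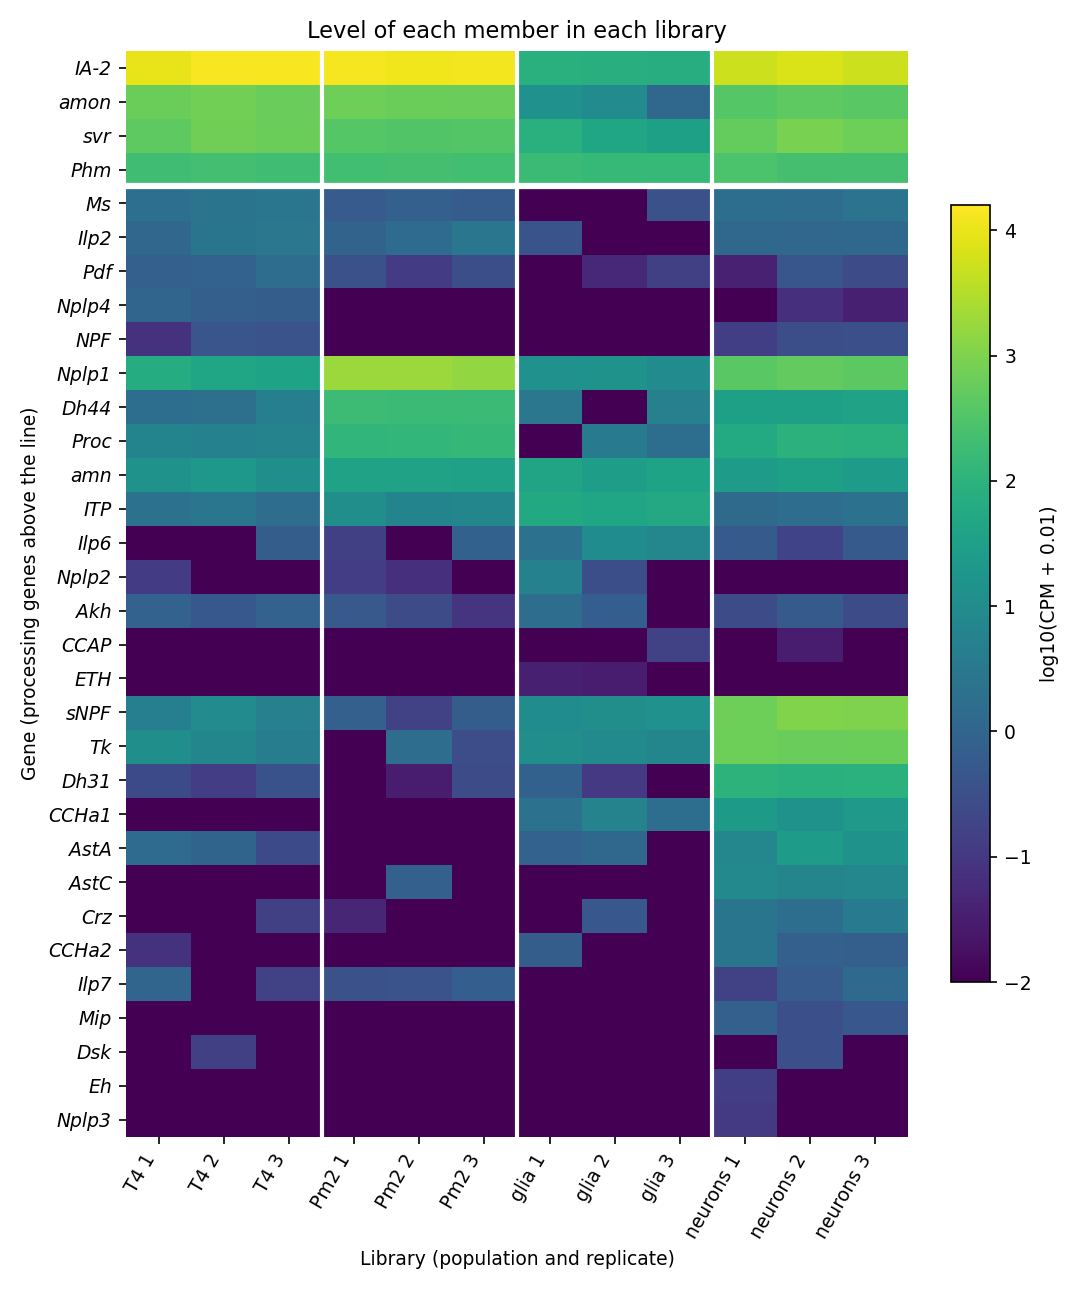
Level of each of the 32 genes in each of the 12 libraries, as log10 of CPM plus 0.01, with processing genes above the horizontal line and precursor genes below it, ordered by the population of highest mean (T4, Pm2, glia, neurons). The 13 precursor genes from sNPF downward were highest in neurons, and IA-2, amon and svr were lowest in glia.

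On the scale of CPM per kb, the Pm2 sum came almost wholly from 3 genes, Nplp1 with 80.6% ± 1.9, Dh44 with 9.12% ± 0.56 and Proc with 8.14% ± 1.2 (SD, n = 3). In neurons the leading genes were Tk with 35.3% ± 4.4, sNPF with 32.9% ± 5.0 and Nplp1 with 15.1% ± 0.94. Among the listed genes, Nplp1 led the small T4 sum with 40.3% ± 6.0. Tk followed with 9.94% ± 4.3 and amn with 8.5% ± 2.4. In glia no gene held a larger share than ITP, with 22.9% ± 3.9, and amn followed with 18.4% ± 3.7. By mean CPM, 5 precursor genes had their highest level in T4, 4 in Pm2, 6 in glia and 13 in neurons. Some of these places rest on few counts, as with ETH on 2 and CCAP on 7 in glia, and Nplp3 on 4 and Eh on 5 in neurons. The T4 means of the 5 genes highest there were at most 2.32 CPM.

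**Figure D2:**
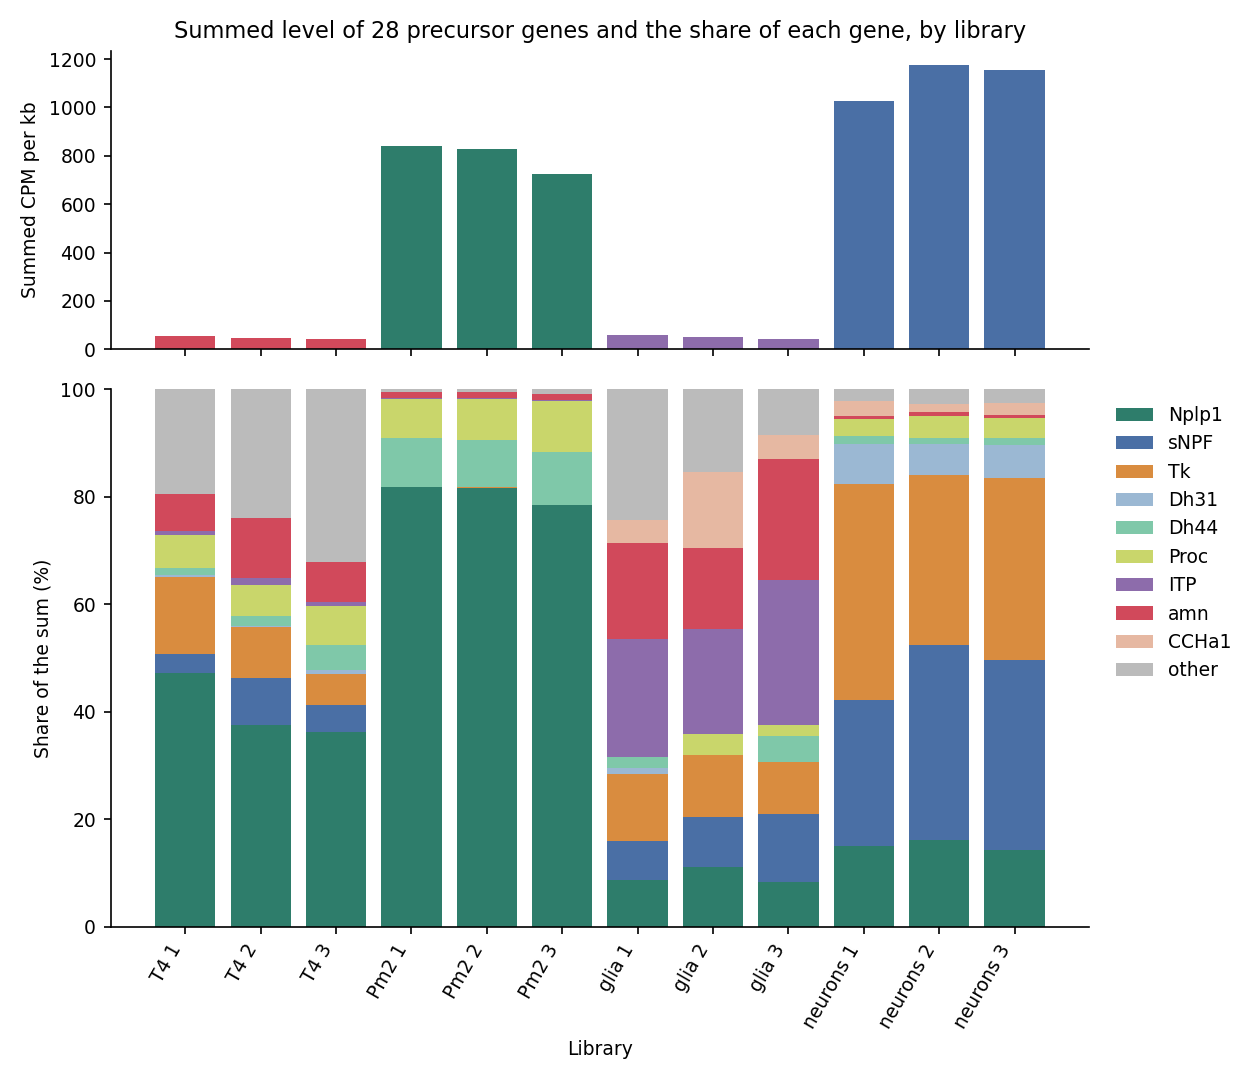
Summed level of the 28 precursor genes in CPM per kb (top) and the percent of that sum from each named gene (bottom), for the 3 libraries of each population. Nplp1 supplied 80.6% of the sum in Pm2 and 15.1% in neurons, where Tk and sNPF supplied most.

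Nplp1, Dh44 and Proc had their highest levels in Pm2. Nplp1 and Dh44 passed the test there against both T4 and neurons, and Proc passed it against T4 but not against neurons. Nplp1, whose precursor yields several amidated neuropeptides, lies on chromosome 2R at 25032377 to 25040377 on the plus strand (BDGP6). It had 67.7, 46.7 and 40.6 CPM in the T4 libraries, 1861, 1827 and 1536 CPM in the Pm2 libraries, 13.5, 15.0 and 9.82 CPM in the glia libraries, and 416, 512 and 446 CPM in the neuron libraries. The 4 populations did not overlap, and every Pm2 library was the highest. By edgeR's quasi-likelihood test with Benjamini-Hochberg adjustment over all genes tested, Nplp1 was 3.8-fold higher in Pm2 than in neurons (log2 difference 1.93 ± 0.21 SE, edgeR adjusted p = 3.52e-05). It was 8.86-fold lower in T4 than in neurons (log2 difference -3.15 ± 0.22 SE, edgeR adjusted p = 5.18e-06). Between the neuron types, T4 stood at 2.97% of the Pm2 level (log2 difference -5.07 ± 0.24 SE, edgeR adjusted p = 4.23e-08).

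Dh44, the precursor of a diuretic hormone related to vertebrate corticotropin-releasing factor, lies on 3R at 9638182 to 9650706 on the plus strand. Its levels were 1.71, 1.95 and 4.71 CPM in T4, 181, 172 and 169.7 CPM in Pm2, 2.87, 0 and 5.13 CPM in glia, and 33.8, 33.4 and 38.3 CPM in neurons. All Pm2 libraries lay above all neuron libraries, and T4 and glia overlapped at a lower level. The Pm2 mean was 4.96 times the neuron mean, with an edgeR adjusted p of 0.0497 (log2 difference 2.31 ± 0.83 SE). That call rested on each library, since leaving out any one of the 6 gave an edgeR adjusted p between 0.0995 and 0.128. It was also lost under median-of-ratios scaling (edgeR adjusted p = 0.0512), library totals (edgeR adjusted p = 0.0541) and DESeq2 (adjusted p = 0.121), and it held in the fit of only those 6 libraries (edgeR adjusted p = 2.67e-08). In T4 Dh44 was 12.6-fold lower than in neurons (log2 difference -3.66 ± 0.90 SE, edgeR adjusted p = 0.0137), with values of 0.059 without T4 replicate 1 and 0.061 without T4 replicate 2, and a log2 difference of -4.27 without T4 replicate 3. Set against Pm2, the T4 level was 62.6-fold lower (log2 difference -5.97 ± 0.99 SE, edgeR adjusted p = 0.000715), or -6.57 on the log2 scale without T4 replicate 3.

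Proc encodes proctolin, a small peptide that acts on muscle and as a neuromodulator, and lies on 2L at 7864642 to 7871432 on the minus strand. It had 6.41, 5.23 and 5.95 CPM in T4, 121, 126 and 136 CPM in Pm2, 0, 3.71 and 1.75 CPM in glia, and 63.0, 95.2 and 84.8 CPM in neurons. The Pm2 libraries all exceeded the neuron libraries, and the T4 libraries all lay below both. The Pm2 mean of 127.5 ± 7.5 CPM against 81.0 ± 16.5 CPM in neurons (SD, n = 3 each) did not pass the test in the joint fit (edgeR adjusted p = 0.485). It passed with only those 6 libraries in the fit (edgeR adjusted p = 0.00324). Against neurons the T4 level was 13.8-fold lower (log2 difference -3.79 ± 0.75 SE, edgeR adjusted p = 0.0048).

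A second set of precursor genes was high in the mixed neurons and low in both single types. sNPF, the precursor of short neuropeptide F, which is known from feeding and mushroom body circuits, lies on 2L at 20027915 to 20056373 on the plus strand. Its levels were 4.61, 9.80 and 5.12 CPM in T4, 0.797, 0.154 and 0.661 CPM in Pm2, 10.5, 11.3 and 13.8 CPM in glia, and 679.6, 1042 and 997 CPM in neurons. Neither single type came near the neuron libraries, and Pm2 was lowest. T4 was 139-fold lower than neurons (log2 difference -7.12 ± 0.48 SE, edgeR adjusted p = 4.1e-06) and Pm2 was 1670-fold lower (log2 difference -10.70 ± 0.57 SE, edgeR adjusted p = 1.32e-07). T4 exceeded Pm2 12-fold (log2 difference 3.58 ± 0.46 SE, edgeR adjusted p = 0.000108). In bulk RNA, fewer cells that express a gene and less RNA per cell cannot be told apart, which holds for each level given here. The Kenyon cell marker ey averaged 0.581 CPM in T4, 0.0959 CPM in Pm2, 0.728 CPM in glia and 71.9 CPM in neurons. The 6 Kenyon cell markers together summed to 952 to 1040 CPM in T4, 779 to 891 CPM in Pm2, 846 to 936 CPM in glia and 1150 to 1190 CPM in neurons, with prt at 0 in Pm2 and glia. Their part in the sNPF result was not tested.

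Tk, the tachykinin precursor, lies on 3R at 11994175 to 12005473 on the minus strand. It had 12.5, 7.14 and 3.92 CPM in T4, 0, 1.59 and 0.283 CPM in Pm2, 11.6, 9.23 and 6.81 CPM in glia, and 668, 604 and 638 CPM in neurons. Neuron libraries stood far above the rest, and the T4 and glia ranges overlapped. The T4 level was 1.23% of the neuron level (log2 difference -6.34 ± 0.82 SE, edgeR adjusted p = 0.000391) and the Pm2 level was 0.0982% of it (log2 difference -10.01 ± 0.99 SE, edgeR adjusted p = 1.78e-05). The log2 difference of Pm2 was -9.41 without Pm2 replicate 1 and -12.1 without Pm2 replicate 2. Gad1 and VGlut mark neurons with other transmitters and were also low but present in the same T4 libraries. They stood at 1.23% and 3.1% of the neuron level. VGAT, which with Gad1 marks GABA neurons, averaged 118 CPM in T4 against 258 CPM in neurons and was not called. The part of these markers in the T4 levels of Tk and sNPF was not tested.

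Dh31, a calcitonin-like diuretic hormone gene, lies on 2L at 8491868 to 8506845 on the minus strand and showed the same contrast. Levels were 0.236, 0.123 and 0.356 CPM in T4, 0, 0.0192 and 0.264 CPM in Pm2, 0.840, 0.0967 and 0 CPM in glia, and 100.4, 85.9 and 90.4 CPM in neurons. All T4, Pm2 and glia libraries lay below 1 CPM, and those 3 populations overlapped. T4 was 382-fold lower than neurons (edgeR adjusted p = 0.000248) and Pm2 was 963-fold lower (log2 difference -9.91 ± 1.13 SE, edgeR adjusted p = 5.36e-05). Of the 15 Pm2 counts, 14 came from replicate 3, and the log2 difference of Pm2 from neurons was -12.9 without it and -9.31 without Pm2 replicate 1.

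CCHa1 and AstA completed this set at lower levels. CCHa1, which encodes CCHamide-1 and lies on 3R at 14092504 to 14096835 on the minus strand, had no count in any T4 or Pm2 library. It had 2.10, 6.06 and 1.69 CPM in glia and 23.9, 15.1 and 22.1 CPM in neurons. CCHa1 was therefore at least 1050-fold lower in T4 than in neurons (edgeR adjusted p = 0.000282) and at least 1100-fold lower in Pm2 (edgeR adjusted p = 9.57e-05). AstA, the allatostatin A precursor on 3R at 24760530 to 24765071 on the minus strand, had 1.49, 0.964 and 0.237 CPM in T4, no count in Pm2, 0.865, 1.24 and 0 CPM in glia, and 7.29, 24.8 and 14.3 CPM in neurons. The neuron libraries varied among themselves, and all lay above the other populations. AstA was at least 833-fold lower in Pm2 than in neurons (edgeR adjusted p = 0.0014). In T4 it was 17.2-fold lower (log2 difference -4.10 ± 1.22 SE, edgeR adjusted p = 0.0393), a call lost when any one of the 6 libraries was left out (edgeR adjusted p between 0.0568 and 0.125).

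**Figure D3:**
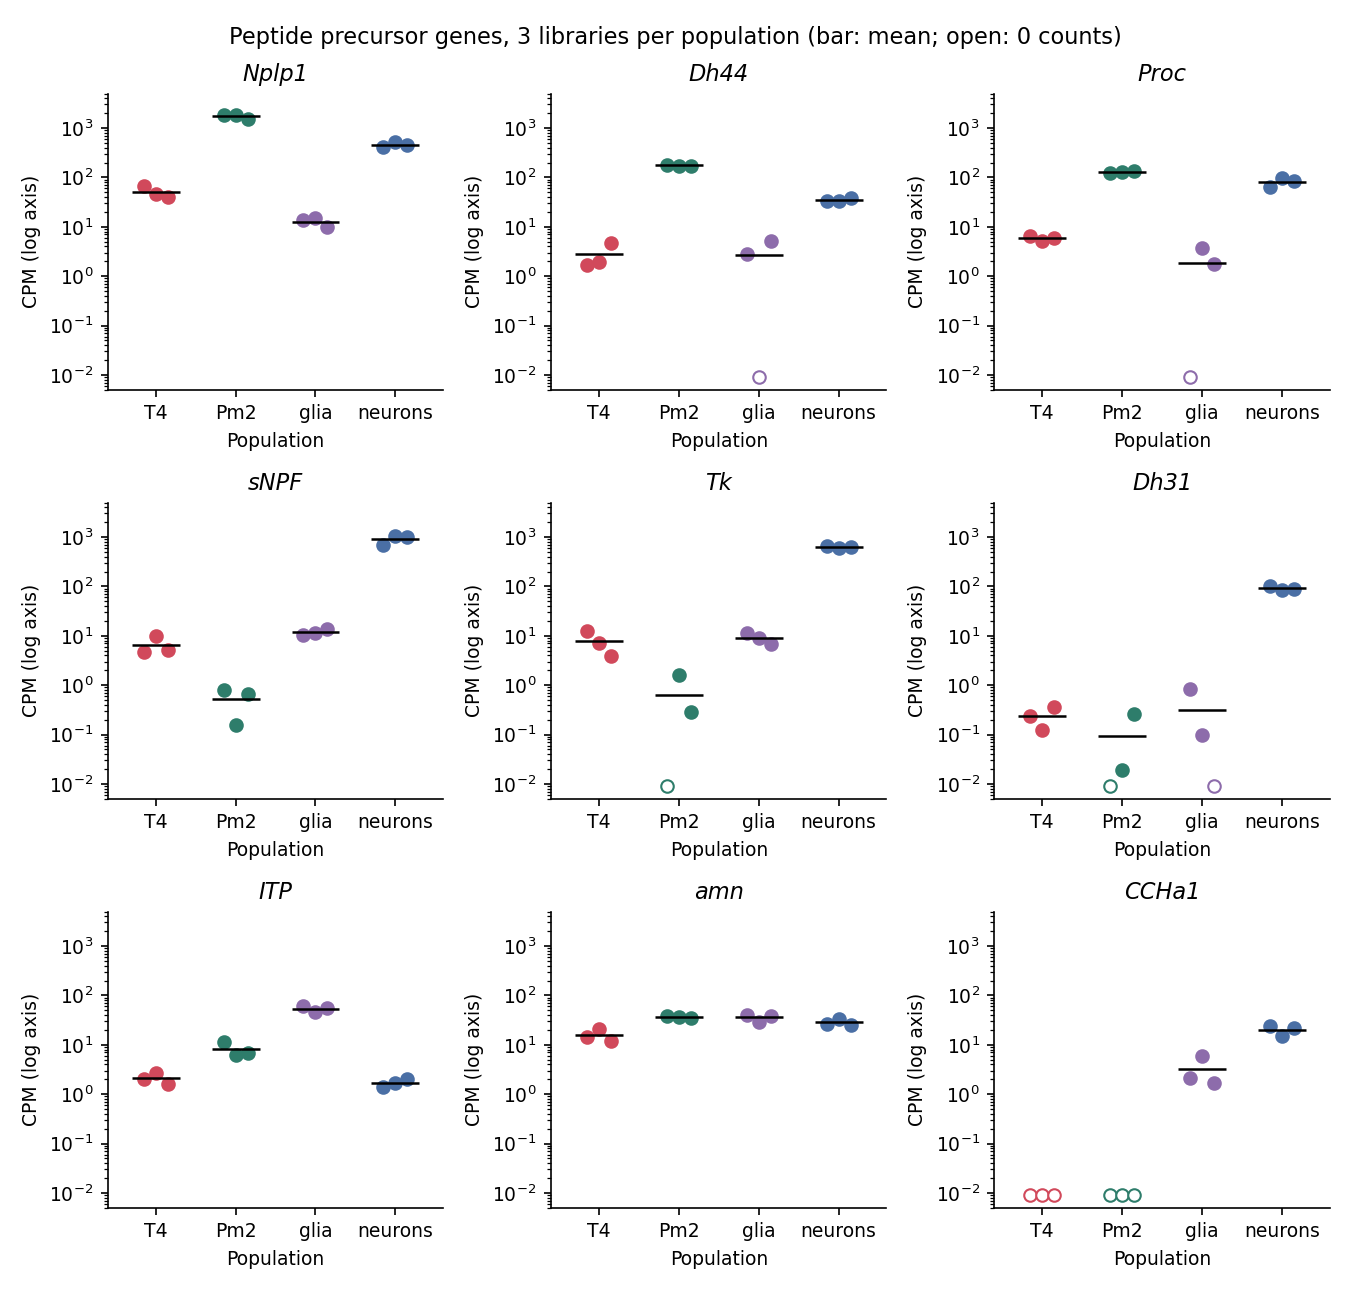
CPM of 9 precursor genes in each library on a log axis, with a bar at the mean of 3 libraries and open circles at the foot for libraries with 0 counts. The top row is highest in Pm2, the middle row is highest in neurons, and the bottom row holds ITP, high in glia, amn, lowest in T4 and between 25.5 and 41.0 CPM elsewhere, and CCHa1, with no count in T4 or Pm2.

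ITP was the precursor gene with the clearest excess in glia. It encodes ion transport peptide, a hormone known for its action on water and salt balance, and lies on 2R at 24537421 to 24558961 on the plus strand. It had 2.02, 2.73 and 1.64 CPM in T4, 11.3, 6.29 and 6.93 CPM in Pm2, 59.7, 45.7 and 56.1 CPM in glia, and 1.37, 1.68 and 1.99 CPM in neurons. Glia were highest, Pm2 came next, and T4 and neurons overlapped. The glia level was 32.0-fold above neurons (log2 difference 5.0 ± 0.31 SE, edgeR adjusted p = 9.26e-08). Pm2 was 4.86-fold above neurons (log2 difference 2.28 ± 0.28 SE, edgeR adjusted p = 0.000103) and 3.84-fold above T4 (edgeR adjusted p = 0.000256 for a T4 minus Pm2 log2 difference of -1.94 ± 0.28 SE). ITP shares 296 exon bases with CG4622 on the other strand, and use of strand in the counting is not given in the sources used here. CG4622 averaged 46.2 CPM in T4, 42.8 CPM in Pm2, 24.6 CPM in glia and 43.7 CPM in neurons. Its part in the ITP levels was not tested.

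The memory gene amn, on the X chromosome at 19886108 to 19890060 on the minus strand, was the most even of the precursor genes above 10 CPM. Levels were 14.5, 20.5 and 12.1 CPM in T4, 38.2, 37.3 and 35.1 CPM in Pm2, 41.0, 29.6 and 39.0 CPM in glia, and 26.6, 33.0 and 25.5 CPM in neurons. T4 lay below the other 3 populations without overlap, at 55.3% of the neuron level (log2 difference -0.86 ± 0.21 SE, edgeR adjusted p = 0.0124). The whole of amn lies within Hers on the opposite strand and shares 140 exon bases with it. Hers averaged 288 CPM in T4, 479 CPM in Pm2, 279 CPM in glia and 279 CPM in neurons, and the reads of the overlapping bases cannot be separated without strand.

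The other 18 precursor genes stayed below 10 CPM in each population, and 12 of them passed the filter of 10 counts in at least 3 libraries. AstC, whose peptide acts through somatostatin-like receptors, had no count in T4, 0, 0.806 and 0 CPM in Pm2, no count in glia, and 8.37, 6.75 and 7.37 CPM in neurons. AstC was at least 386-fold lower in T4 than in neurons (edgeR adjusted p = 0.0216), with values of 0.0506 to 0.0556 when any one library was left out. AstC would not have passed the filter without the neuron libraries, where it was high. Nplp4 ran the other way. It had 1.02, 0.738 and 0.653 CPM in T4, no count in Pm2 or glia, and 0, 0.0636 and 0.0246 CPM in neurons. Only the T4 libraries reached 10 counts, so Nplp4 passed the filter through the same values that made it high. The 3 T4 libraries held 125 counts in all, against 4 in the neuron libraries. That difference passed the test (log2 difference 4.61 ± 1.23 SE, edgeR adjusted p = 0.0354) and did not when any one of the 6 libraries was left out (edgeR adjusted p between 0.0537 and 0.12) or under DESeq2 (adjusted p = 0.101).

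NPF, the neuropeptide Y relative, averaged 0.286 ± 0.186 CPM in T4, 0 in Pm2, 0 in glia and 0.249 ± 0.103 CPM in neurons (SD, n = 3 each). Mip, which encodes the myoinhibitory peptides, had counts in neurons only, at 0.525 ± 0.241 CPM, and passed the filter through those libraries alone. Crz, the corazonin gene, averaged 0.0461 CPM in T4, 0.0118 CPM in Pm2, 0.161 CPM in glia and 2.61 ± 0.935 CPM in neurons. The summed counts behind the neuron levels of Mip and Crz were 64 and 322, and the Crz levels of T4 and Pm2 rest on 7 and 2 counts. AstC, Nplp4, NPF, Mip and Crz were given under a rule of up to 5 low genes that passed a test against neurons. The rule set no order, and CCHa2, Ms, Ilp2 and Ilp7 also passed such a test. Ms averaged 0.114 CPM in glia against 1.91 CPM in neurons (edgeR adjusted p = 0.0124, and 0.0732 in the fit of only those 6 libraries). The other low genes were chosen for naming after their values were seen. The clock neuron peptide gene Pdf averaged 1.10 CPM in T4, 0.251 CPM in Pm2, 0.0585 CPM in glia and 0.239 CPM in neurons, and it was not called in any comparison with neurons.

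The insulin-like genes showed no common pattern. Ilp2 averaged 2.19 CPM in T4, 1.71 CPM in Pm2, 0.132 CPM in glia and 1.17 CPM in neurons. It lies within CG32052 on the same strand, which averaged 47.5, 51.1, 0.097 and 49.6 CPM in T4, Pm2, glia and neurons, so both genes were lowest in glia. Ilp6, known from the fat body, had 0, 0 and 0.653 CPM in T4, 0.142, 0 and 0.831 CPM in Pm2, 2.08, 10.2 and 7.61 CPM in glia, and 0.553, 0.170 and 0.565 CPM in neurons. Every glia library lay above the rest, yet the difference of glia from neurons did not pass the test (log2 difference 3.95 ± 1.72 SE, edgeR adjusted p = 0.0603). Ilp7 had no count in glia and 0.410 CPM in T4, 0.473 CPM in Pm2 and 0.677 CPM in neurons. Nplp2 had 5.24, 0.290 and 0 CPM in glia, so its glia mean came from 1 library. Nplp3, CCAP, Dsk, ETH and Eh never exceeded 0.319 CPM in a library. The row spelled Hug, which differs from the listed symbol in its capital, averaged 2.47 CPM in T4, 0.0059 CPM in Pm2, 0 in glia and 1.17 CPM in neurons. It lies within the receptor gene Octbeta3R on the other strand, which averaged 112, 3.22, 1.33 and 145 CPM in the same order of populations.

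The processing genes did not follow the precursor genes. IA-2, on 2L at 1008378 to 1048053 on the minus strand, had 9799, 13680 and 13770 CPM in T4, 13090, 11990 and 12150 CPM in Pm2, 87.8, 81.5 and 74.4 CPM in glia, and 5433, 7245 and 5428 CPM in neurons. It took between 1.11% and 1.54% of all counts in T4. Both single types lay above all neuron libraries, and they overlapped each other. IA-2 was 2.06-fold higher in T4 than in neurons (log2 difference 1.04 ± 0.15 SE, edgeR adjusted p = 0.000882) and 2.06-fold higher in Pm2 than in neurons (log2 difference 1.04 ± 0.15 SE, edgeR adjusted p = 0.000344). Between T4 and Pm2 the IA-2 difference was 0.00 ± 0.15 SE on the log2 scale (edgeR adjusted p = 1.0). Glia held 1.35% of the neuron level (log2 difference -6.22 ± 0.19 SE, edgeR adjusted p = 4.2e-10).

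The convertase gene amon, on 3R at 26697697 to 26714159 on the minus strand, had 648, 765 and 613 CPM in T4, 663, 632 and 619 CPM in Pm2, 13.7, 10.02 and 1.18 CPM in glia, and 365, 471 and 407 CPM in neurons. Both single types exceeded the neurons in every library, with means of 675 ± 79.3 CPM in T4, 638 ± 22.5 CPM in Pm2 and 414 ± 53.1 CPM in neurons (SD, n = 3 each). Neither difference passed the test in the joint fit, with an edgeR adjusted p of 0.383 for T4 and 0.399 for Pm2. In fits of only the 6 libraries compared, both passed, with an edgeR adjusted p of 0.00105 for T4 and 0.000544 for Pm2. In glia the third library lay far below the other 2, and the glia mean stood at 2.0% of the neuron level (log2 difference -5.64 ± 0.66 SE, edgeR adjusted p = 1.44e-05).

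The carboxypeptidase gene svr, on the X chromosome at 496446 to 509072 on the plus strand, had 456, 733 and 638 CPM in T4, 372, 334 and 345 CPM in Pm2, 85.9, 43.6 and 33.6 CPM in glia, and 537, 878 and 687 CPM in neurons. T4 and neurons overlapped, while every Pm2 library was lower than every neuron library. The ratio of the Pm2 mean to the neuron mean was 0.5 (log2 difference -1.0 ± 0.31 SE, edgeR adjusted p = 0.0283). That call was lost without any single Pm2 library (edgeR adjusted p = 0.0629, 0.086 and 0.0787), without neuron replicate 2 (edgeR adjusted p = 0.106) and without neuron replicate 3 (edgeR adjusted p = 0.0616). svr shares 817 exon bases with antisense RNAs whose counts could not be told apart from its own.

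Phm, the amidating monooxygenase gene on 2R at 23985175 to 23988455 on the minus strand, was the most even of the 32 genes by the ratio of highest to lowest mean. It had 200.2, 218 and 198 CPM in T4, 211, 229 and 215 CPM in Pm2, 169, 143 and 144 CPM in glia, and 272, 239 and 233 CPM in neurons. Glia were lowest in all libraries but kept 61.2% of the neuron level (log2 difference -0.71 ± 0.10 SE, edgeR adjusted p = 9.73e-05). Phm overlaps Sox14 and CG30178 on the other strand, with 3 shared exon bases in all. Sox14 averaged 1.25 CPM in T4, 0.869 CPM in Pm2, 445 CPM in glia and 1.38 CPM in neurons, and its part in the glia level of Phm was not tested. Pan-neuronal markers in the same glia libraries stood at 1.53% of the neuron level for nSyb, 1.62% for brp and 21.5% for elav. IA-2, amon and svr stood at 1.35%, 2.0% and 7.76% of the neuron level in glia, with svr between brp and elav. For IA-2, amon, svr and Phm, the part of the pan-neuronal markers in the glia levels was not tested.

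**Figure D4:**
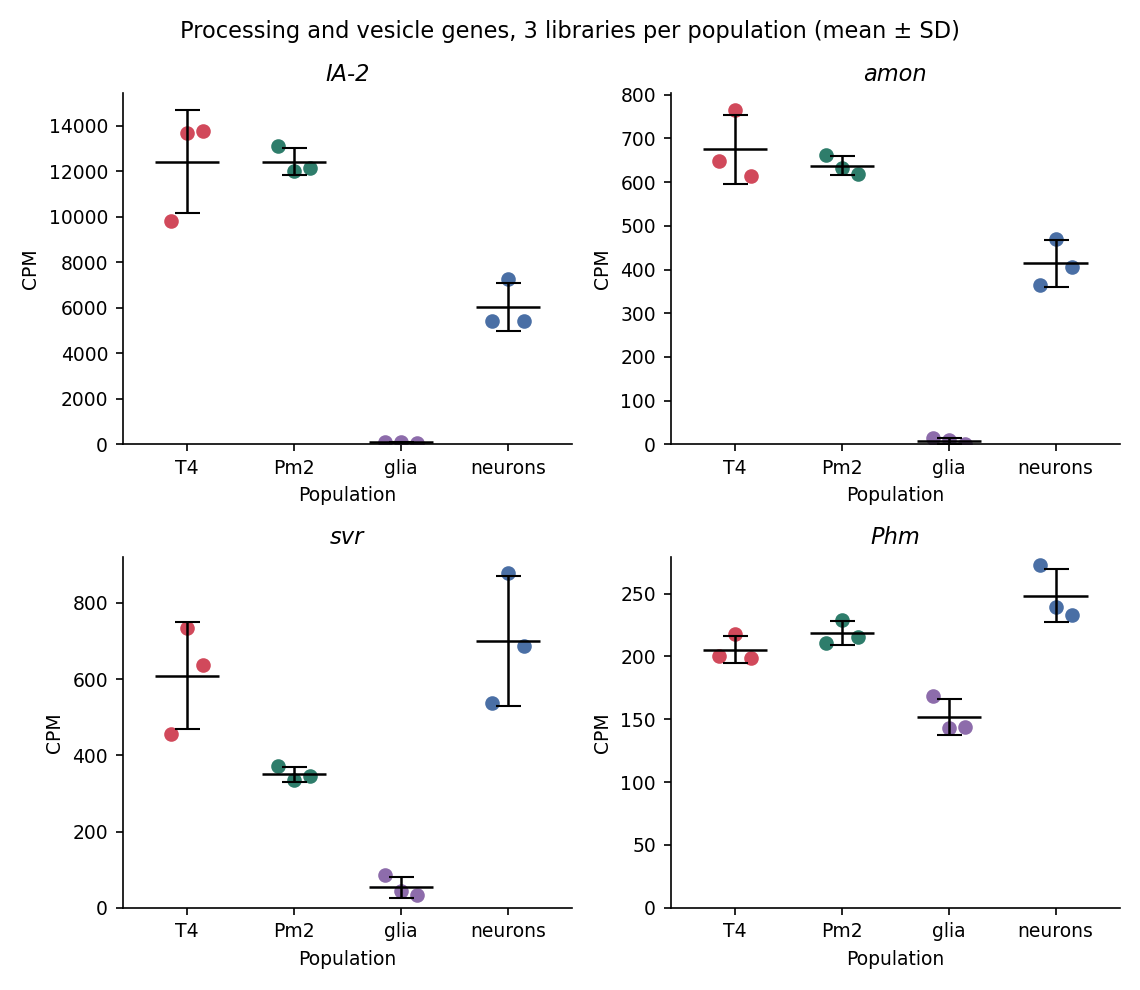
CPM of the 4 processing and vesicle genes in each library, with the mean and SD of 3 libraries per population on linear axes from 0. IA-2, amon and svr are near 0 in glia, whereas Phm lies between 143 and 169 CPM in glia and between 198 and 272 CPM in the other populations.

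Per kb of exon, IA-2 RNA stood at 1210 CPM per kb in T4 and in Pm2, against precursor sums of 46.9 and 799 CPM per kb. The ratio of IA-2 to the precursor sum was 18.0, 29.0 and 32.3 in the T4 libraries, 1.52, 1.41 and 1.63 in the Pm2 libraries, 0.148, 0.160 and 0.165 in the glia libraries, and 0.517, 0.601 and 0.458 in the neuron libraries. The T4 ratios were thus the highest, with no overlap between any of the 4 populations. The ratio of amon to the same sum was 3.05 to 4.16 in T4, 0.191 to 0.214 in Pm2, 0.00674 to 0.0591 in glia and 0.0881 to 0.100 in neurons. Precursor genes outside the list would raise the sums and were not included in them. The 22 further precursor genes below summed to 55.5 to 77.9 CPM in T4 libraries, beside 101.8 ± 16.7 CPM for the listed genes. They summed to 45.9 to 51.6 CPM in Pm2, 7.2 to 12.5 CPM in glia and 303 to 349 CPM in neurons. These sums are in CPM, whereas the ratios use CPM per kb. In T4, Gpb5 alone stood at 38.7 CPM per kb, above the 19.1 CPM per kb of Nplp1. CG8216 and CG13565, also outside the list, stood at 12.5 and 11.9 CPM per kb in T4, beside the listed sum of 46.9. The T4 sum and ratios thus depend on which precursor genes are listed.

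In T4 against neurons, 11 of the 22 precursor genes tested fell, 1 rose and 10 did not pass the test, and of the 4 processing genes IA-2 rose and the others did not pass. Of the 32 genes, 26 were tested and 13 were called at an adjusted p below 0.05, 2 higher (Nplp4 and IA-2) and 11 lower. Over all 10528 genes tested, 23.2% were called, 8.67% higher and 14.5% lower. All 11 lower genes were precursors, namely sNPF, Nplp1, Dh31, Dh44, Mip, Tk, AstA, AstC, CCHa1, Proc and amn. Of these, AstC and Mip passed the filter only through the neuron libraries, where they were high. The median log2 difference was -0.92 over the 26 genes and -3.41 over the 22 precursor genes, against -0.06 over all genes, and both medians stayed the same with genes at 0 set to their limits. The Mip call (at least 27.0-fold lower, edgeR adjusted p = 0.0233) was lost without T4 replicate 2 or any one neuron library (edgeR adjusted p between 0.0506 and 0.0707). Without T4 replicate 2, 8 of the 26 were called and 7 of them were lower.

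In Pm2 against neurons, the precursor genes split. Of the 26 tested genes, 14 were called, 4 higher (Nplp1, Dh44, ITP and IA-2) and 10 lower. The background was 35.6% of all genes, with 15.5% higher and 20.1% lower. The lower genes were sNPF, NPF, Dh31, Mip, Tk, AstA, CCHa1, CCHa2 and Crz among precursors, and svr. Of these, Mip, CCHa2 and Crz passed the filter only through the neuron libraries, where they were high. CCHa2 was at least 74.5-fold lower (edgeR adjusted p = 0.0289) and Crz was 177-fold lower (log2 difference -7.47 ± 2.21 SE, edgeR adjusted p = 0.0213). The CCHa2 call was lost without any one Pm2 library or neuron replicate 1 (edgeR adjusted p between 0.0645 and 0.0718), and the Crz call without Pm2 replicate 2, Pm2 replicate 3 or neuron replicate 3 (edgeR adjusted p between 0.0527 and 0.0761). The Mip call (at least 28.3-fold lower, edgeR adjusted p = 0.0146) was lost under DESeq2 (adjusted p = 0.166). The Crz log2 difference was -9.95 without Pm2 replicate 1. The median log2 difference of the precursors was -2.58, or -1.07 with genes at 0 set to their limits, against -0.08 over all genes.

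In glia against neurons, 19 of the 26 tested genes were called, 1 higher (ITP) and 18 lower. The background was 68.7% of all genes, with 30.9% higher and 37.8% lower, so the share of the 26 that was called at all lay near it. All 4 processing genes and 14 precursors were among the 18. Of these, AstC and Mip passed the filter only through the neuron libraries, where they were high. The median log2 difference was -4.0, or -3.85 with genes at 0 set to their limits, against -0.17 over all genes. Ilp2 was called lower in glia (edgeR adjusted p = 0.0456), a call lost without neuron replicate 1, 2 or 3 and without glia replicate 2 or 3 (edgeR adjusted p between 0.07 and 0.0813). The neuronal markers nSyb and brp in glia held 1.53% and 1.62% of the neuron level. The neuronal marker elav averaged 138 CPM in glia against 641 CPM in neurons. Of the precursors called lower, Dh44 averaged 2.66 CPM in glia against 35.2 CPM in neurons, and Dh31 0.312 CPM against 92.3 CPM. Nplp1 and Tk in glia held 2.79% and 1.45% of the neuron level. CCHa1 held 16.1% (log2 difference -2.63 ± 0.57 SE, edgeR adjusted p = 0.00455; -3.43 without glia replicate 2). The 6 pan-neuronal markers, none of them at 0 in glia, summed to 261 to 306 CPM in glia libraries against 12400 to 13000 CPM in neuron libraries. Their part in these glia levels was not tested.

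**Figure D5:**
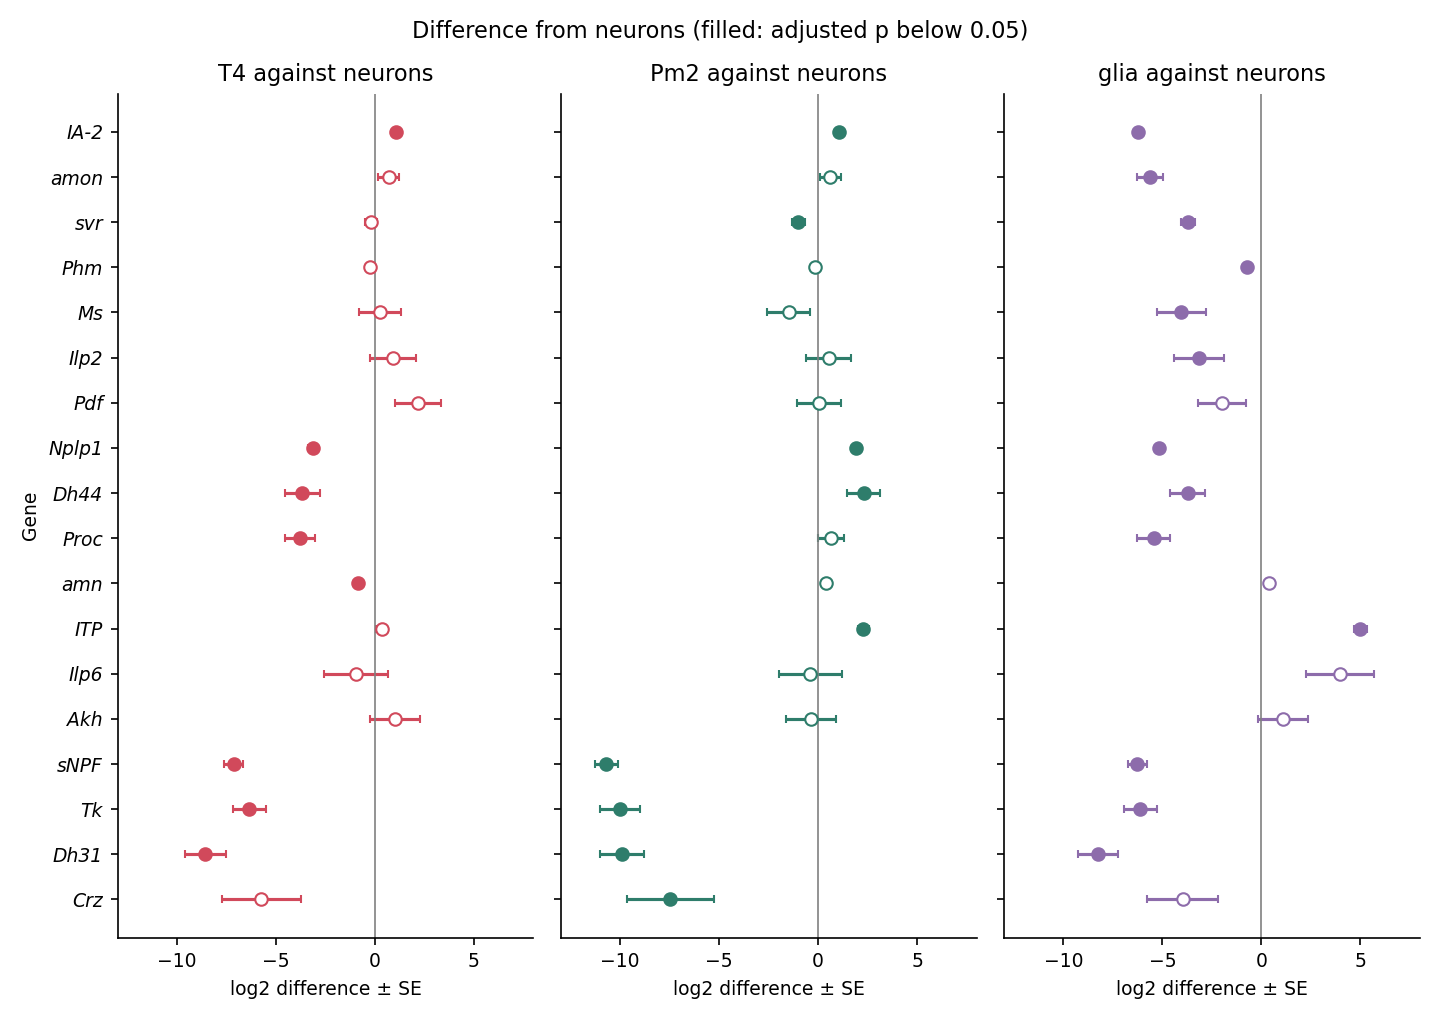
Difference from neurons on the log2 scale ± SE for T4, Pm2 and glia, for the 18 tested genes that had a count in every population, with filled points for an edgeR adjusted p below 0.05. IA-2 lies right of 0 in T4 and Pm2 and far left in glia, while sNPF, Tk and Dh31 lie left in all panels.

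T4 and Pm2, set directly against each other, each exceeded the other in 5 precursor genes, and none of the 4 processing genes passed the test. Of the 26 tested genes, 10 (38.5%) were called, 5 higher in T4 (sNPF, Nplp4, NPF, Tk and AstA) and 5 lower in T4 (Nplp1, Dh44, Proc, ITP and amn). The background was 36.4% of all genes, with 18% higher and 18.4% lower, so the share of the 26 lay near it. The 5 lower genes included the 3 that make up most of the Pm2 sum. Tk was 12.7-fold higher in T4 (log2 difference 3.66 ± 0.81 SE, edgeR adjusted p = 0.00441), from means of 7.84 CPM in T4 and 0.625 CPM in Pm2. That Tk difference was 3.06 without Pm2 replicate 1 and 5.8 without Pm2 replicate 2. AstA, Nplp4 and NPF had no count in Pm2 and were at least 48.3-fold, 43.2-fold and 15.4-fold higher in T4, on T4 means of 0.897, 0.803 and 0.286 CPM. The svr difference of 0.80 ± 0.31 SE on the log2 scale, with T4 above Pm2 in every library, did not pass the test (edgeR adjusted p = 0.0679). It passed with only the T4 and Pm2 libraries in the fit (edgeR adjusted p = 0.00204) and under DESeq2 (adjusted p = 0.031).

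Both neuron types exceeded glia in all 4 processing genes. T4 had 11 of 26 genes called higher and 4 lower than glia, against a background of 67.8% called, 35.6% higher and 32.2% lower. Pm2 had 9 called higher and 6 lower, against 66% called, 33.8% higher and 32.2% lower. In both comparisons the count called was below the background share of all genes. CCHa1, ITP and Ilp6 were called lower than in glia in both neuron types. The Ilp6 call was lost in T4 without T4 replicate 1, T4 replicate 2 or glia replicate 2 (edgeR adjusted p between 0.0609 and 0.0715), and in Pm2 without Pm2 replicate 1 or 2 or glia replicate 2 or 3 (edgeR adjusted p between 0.0723 and 0.127). IA-2 was 153-fold higher in T4 than in glia and 153-fold higher in Pm2 than in glia. The sNPF level did not pass the test between T4 and glia (6.51 ± 2.86 CPM against 11.8 ± 1.72 CPM, SD, n = 3 each, edgeR adjusted p = 0.0621), and it did without T4 replicate 2 (edgeR adjusted p = 0.0153).

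Further genes of the pathway, not in the list, were read in the same fit. Of 22 further precursor genes, 9 were tested. In T4 against neurons 1 was called higher and 2 lower, in Pm2 against neurons 0 higher and 2 lower, and in glia against neurons 1 higher and 6 lower. These are 33.3%, 22.2% and 77.8% of the 9, against 23.2%, 35.6% and 68.7% of all genes, and on counts this small none is read as differing from them. CG8216, listed by the annotation under the name spab, averaged 15.0 ± 4.16 CPM in T4, 0.639 ± 0.556 CPM in Pm2, 2.05 ± 1.8 CPM in glia and 271.8 ± 20.5 CPM in neurons. It was 5.53% of the neuron level in T4 (edgeR adjusted p = 0.00126) and 0.235% in Pm2 (edgeR adjusted p = 1.24e-05). FMRFa, the precursor of FMRFamide-related peptides, had counts in neurons only, at 3.81 ± 1.87 CPM. CG13565, the orcokinin gene, averaged 17.7 ± 7.66 CPM in T4, 9.81 ± 1.12 CPM in Pm2, 1.67 ± 0.691 CPM in glia and 7.09 ± 0.992 CPM in neurons, and it was called higher in T4 than in neurons (edgeR adjusted p = 0.0234). Gpb5, a glycoprotein hormone subunit gene, averaged 29.6 CPM in T4, 35.2 CPM in Pm2, 2.38 CPM in glia and 34.0 CPM in neurons. Ptth was the gene called higher in glia, at 3.08 ± 2.97 CPM against 0.0141 ± 0.0245 CPM in neurons. Ptth passed the filter only through the glia libraries and FMRFa only through the neuron libraries, where each was high.

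Of 21 further processing, vesicle and peptide-degrading genes, 20 were tested. In T4 against neurons 0 were called higher and 4 lower, in Pm2 against neurons 2 higher and 6 lower, and in glia against neurons 2 higher and 13 lower. As 20%, 40% and 75% of the 20, these lay near the 23.2%, 35.6% and 68.7% of all genes. Fur1, a furin-like convertase gene, averaged 84.7 ± 9.20 CPM in T4, 5.25 ± 0.377 CPM in Pm2, 118 ± 18.5 CPM in glia and 164 ± 5.20 CPM in neurons. It was thus the convertase with the widest gap between the neuron types, and T4 exceeded Pm2 16.1-fold (log2 difference 4.01 ± 0.15 SE, edgeR adjusted p = 9.18e-09). The gene 7B2, which encodes a PC2-binding chaperone, averaged 556 ± 75.4 CPM in T4, 1563 ± 68.4 CPM in Pm2, 12.4 ± 4.77 CPM in glia and 957 ± 118 CPM in neurons. It was lower in T4 than in neurons (log2 difference -0.78 ± 0.23 SE, edgeR adjusted p = 0.0312) and higher in Pm2 than in neurons (log2 difference 0.71 ± 0.23 SE, edgeR adjusted p = 0.0331).

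Of the 5 neprilysin genes tested, whose products degrade peptides, Nep2 and Nep4 passed a test, and Nep1, Nep3 and Nep5 passed none in any comparison. Nep2 averaged 1.43 ± 1.8 CPM in T4, 0.423 ± 0.379 CPM in Pm2, 0 in glia and 25.0 ± 0.509 CPM in neurons, and it was called lower in all 3. Nep4 averaged 4.02 CPM in T4, 1.63 CPM in Pm2, 212 ± 72.4 CPM in glia and 1.54 ± 0.989 CPM in neurons (glia against neurons, edgeR adjusted p = 9.69e-07). The vesicle genes Sytbeta and Rab2 were both lower in Pm2 than in neurons, and Sytbeta had no count in Pm2 against 15.1 ± 4.10 CPM in neurons. In glia Rab3, Pal2, unc-104 and 7B2 had the smallest adjusted p, and Pal2, which completes amidation after Phm, averaged 21.1 ± 3.21 CPM in glia against 1485 ± 204 CPM in neurons. Sytalpha and dimm were chosen for naming after their values were seen. Sytalpha, a synaptotagmin gene, averaged 1537 ± 224 CPM in T4 against 285 ± 34.3 CPM in Pm2 (edgeR adjusted p = 0.0207) and 385 ± 2.65 CPM in neurons (edgeR adjusted p = 0.0639). The vesicle motor gene unc-104 averaged 2386 ± 72.1 CPM in Pm2 against 1672 ± 278 CPM in neurons (edgeR adjusted p = 0.00534). dimm, a regulator of peptidergic cells, averaged 0 in T4, 0.141 CPM in Pm2, 0 in glia and 0.237 CPM in neurons.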

How the data were processed

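Messenger RNA of 12 libraries was made into cDNA with SMART-Seq v4 and Nextera XT kits and read as paired ends, per the labels' protocols. The deposited table holds counts for 16272 gene names, which the authors made with Trimmomatic 0.32, STAR 2.5.2 and HTSeq 0.6.1 on BDGP6, per the submitters' processing notes. Settings, use of strand and annotation release are not given in the sources used here. The values are whole-number counts of unequal totals, so they were treated as raw. The kits do not mark strand. The full-length cDNA was not counted by molecule, so PCR copies are included.

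The listed genes and the further lists were chosen with earlier results of these data known. Groups came from the labels. The neuron columns matched the group but not single samples, so their replicate numbers are those of the columns. The 10528 genes that reached 10 counts in 3 or more libraries were tested with edgeR 4.0.16 in R 4.3.3, in 1 quasi-likelihood fit over all 12 libraries with TMM scaling and 6 contrasts. P-values were adjusted by Benjamini-Hochberg over all genes tested, and calls used an adjusted p of 0.05. A low gene could pass the filter only through the population where it was high, as Nplp4 did in T4 and Ptth in glia. In neurons the same held for AstC, Mip, CCHa2, Crz and FMRFa. SE was taken from the F statistic. The fit was also run on simulated counts drawn from its own model. Changes were placed only in genes above a minimum mean count, so that run does not bear on genes below it. Exon lengths and positions came from the Ensembl annotation of BDGP6. Genes listed by rule were those with a mean of at least 10 CPM, up to 5 called genes below that, and up to 4 genes per further list and comparison with neurons with the smallest adjusted p. Alternatives were median-of-ratios scaling, library totals, no filter, a filter at 100 counts, fits of only the 6 libraries compared, DESeq2 1.42.0, a replicate block, and leaving out each library. Protein and promoter sequences were not used here.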

Additional observations from a re-analysis of the deposited data

How the results depend on the processing

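Results for the listed genes gave 1271 comparisons of a value under an alternative with its value as reported: 1164 kept direction and call, 84 lost the call, 11 gained it and 12 changed sign. The count called higher in T4 against neurons was 1 with no filter, at 100 counts, under DESeq2 and without any one library. Leaving out 1 library gave 8 to 11 genes called in T4 against neurons, 7 to 10 of them lower, with both lowest counts without T4 replicate 2, and 1 to 2 called higher in glia against neurons. The filter at 100 counts removed low genes and gave 6 lower in Pm2 against neurons, 3 higher in T4 against Pm2 and 6 higher in T4 against glia. Fits of only the 6 libraries compared gave 7 higher in Pm2 against neurons, 2 higher in glia against neurons and 8 higher in T4 against Pm2. With no filter and under DESeq2, 2 were higher in glia against neurons. Except for the filter at 100 counts, the cause was not tested.

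The labels do not state a pairing of libraries by replicate number. Correlations of same-numbered deviations over all genes tested ran from -0.0286 to 0.0247. They showed no pairing and cannot exclude one, since the noise of low genes can hide it. A fit with the replicate block, possible for T4, Pm2 and glia, gave 6 genes called in T4 against Pm2 with 1 higher, and 7 higher in T4 against glia, whereas the same 9 libraries without the block gave 10, 5 and 11. In T4 against Pm2 the adjusted p with the block was 0.0759 for Tk, 0.0502 for AstA, 0.102 for Nplp4 and 0.176 for NPF.

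No value that changed sign was a call. The Phm log2 difference of T4 from Pm2 was 0.0688 on library totals. That of IA-2 was -0.000581 with no filter and ran from -0.0805 to 0.145 without 1 library, and that of amon from -0.0171 to 0.146. The amn difference of Pm2 from glia was -0.133 under median-of-ratios scaling and DESeq2, -0.0545 at 100 counts and -0.111 to 0.113 without 1 library.

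Over all genes, library totals shifted the median log2 difference of glia from neurons to -0.52 and the calls to 2674 higher and 4657 lower, against 3252 and 3984. In T4 against glia the median was then 0.473, with 4577 higher and 2767 lower against 3748 and 3390, and in T4 against Pm2 0.143, with 2399 and 1528 against 1896 and 1940. All-gene calls in T4 against neurons numbered 2444, 1636 without T4 replicate 2 and 3428 in the fit of 6 libraries.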
